A study of Mus musculus with 6 samples.

Results

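The genes described here are the enzymes, carriers and regulators of fatty acid oxidation in mitochondria and peroxisomes of the mouse kidney. They were taken by gene symbol from a list of 35 names, and all 35 were found among the 24346 symbols of the expression table. The samples are whole kidneys of C57BL/6 mice, with 3 RNA libraries after surgery that the labels call IVCC and 3 after Sham surgery. The study asks about renal congestion and acute kidney injury, and the labels give no age, sex, time after surgery or further treatment for either group. IVCC is not spelled out in the labels, and nothing there says that the libraries of a group came from different animals. The p-values therefore describe the spread among these libraries, which may be technical. Expression is given as FPKM, the fragments assigned to a gene per kilobase of its transcript, scaled to the fragments of the library.

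Fatty acids are activated to acyl-CoA, passed into mitochondria as acylcarnitines by the carnitine shuttle, and shortened there by repeated rounds of dehydrogenation, hydration, dehydrogenation and thiolysis. Electrons from the first dehydrogenation reach the respiratory chain through electron transfer flavoprotein. Peroxisomes shorten very long and branched acyl chains with a separate set of enzymes and pass the products on, while the nuclear receptor PPAR alpha and its coactivator PGC-1 alpha raise transcription of many of these genes. The proximal tubule of the kidney is rich in both organelles and relies on fatty acids as fuel.

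The 35 genes were highly expressed in these kidneys. Their mean levels over the 6 libraries ran from 4.79 FPKM for Pdk4 to 826 FPKM for Etfb, with a median of 117 FPKM against 11.1 FPKM over the 12090 genes tested (mean of at least 1 FPKM). All 35 passed this filter, 34 had a mean above 10 FPKM and 22 a mean above 100 FPKM. Read totals are not part of the deposited values. Nominal depths estimated from the spacing of low FPKM values were 8170000 to 9150000 reads for IVCC libraries and 6140000 to 7130000 for Sham libraries, without overlap. The largest counting error this allows for any of the 35 genes in any library was 10.6%, for Pdk4. Kidney markers were high, with Slc34a1, the phosphate transporter of the proximal tubule, at 2131 to 2576 FPKM and Umod, uromodulin of the thick ascending limb, at 842 to 1702 FPKM over the 6 libraries.

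No gene of the set passed the test. The test was limma on log2(FPKM + 1) with Benjamini-Hochberg adjustment over all 12090 genes, and it called 0% of them at an adjusted p under 0.05 (smallest 0.790). The smallest adjusted p among the 35 genes was 0.924. At an unadjusted limma p under 0.05, 2 of the 35 were lower in IVCC (Acadm and Crot), against 1.87% of all genes tested, and 1 was higher (Pex11a), against 1.70%. In 5 of the 35 (Acadm, Acadl, Acat1, Etfa and Crot) all 3 IVCC values lay below all 3 Sham values, as they did in 4.22% of all genes. In 1 of the 35 (Cpt1a) all 3 lay above, as in 4.09% of all genes. With 3 libraries a group, an exact permutation test could reach p = 0.1 at best, so none was run for single genes. After TPM scaling or quantile normalization none of these 6 genes remained without overlap, and of the lower genes only Acot1 was then separate. The length and GC correction ended the separation of Acadl and Acat1. Neither Acadm nor Crot had an unadjusted p under 0.05 after TPM scaling, after quantile normalization, without IVCC 1 or without Sham 2, Acadm also not without IVCC 2 and Crot also not without Sham 3. Pex11a missed it as well without IVCC 1, IVCC 2, Sham 1 or Sham 3, and under 5 of the scaling, variance and correction settings.

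The fitted difference was below 0 for 27 of the 35 genes, against 51.6% of all genes tested, but for only 17 after quantile normalization, 17 without Sham 3 and 12 after scaling to TPM. The median log2 fold change over the 35 was -0.08, beside -0.01 over all genes. TPM scaling moved the median of all genes to 0.15 and that of the 35 genes to 0.10, and relative to the median of all genes 25 of the 35 were then lower. The 20 mitochondrial genes had a median of -0.12 (17 lower, 3 higher) and the 8 peroxisomal genes one of -0.06 (5 lower, 3 higher), and both medians were above 0 after TPM scaling (0.06 and 0.12) and without Sham 3 (0.02 and 0.01). The peroxisomal median was also above 0 after quantile normalization (0.06) and without IVCC 2 (0.01). The difference between the 2 compartments was not tested. In whole kidney RNA, fewer cells of a type and less RNA per cell cannot be told apart.

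**Figure D1:**
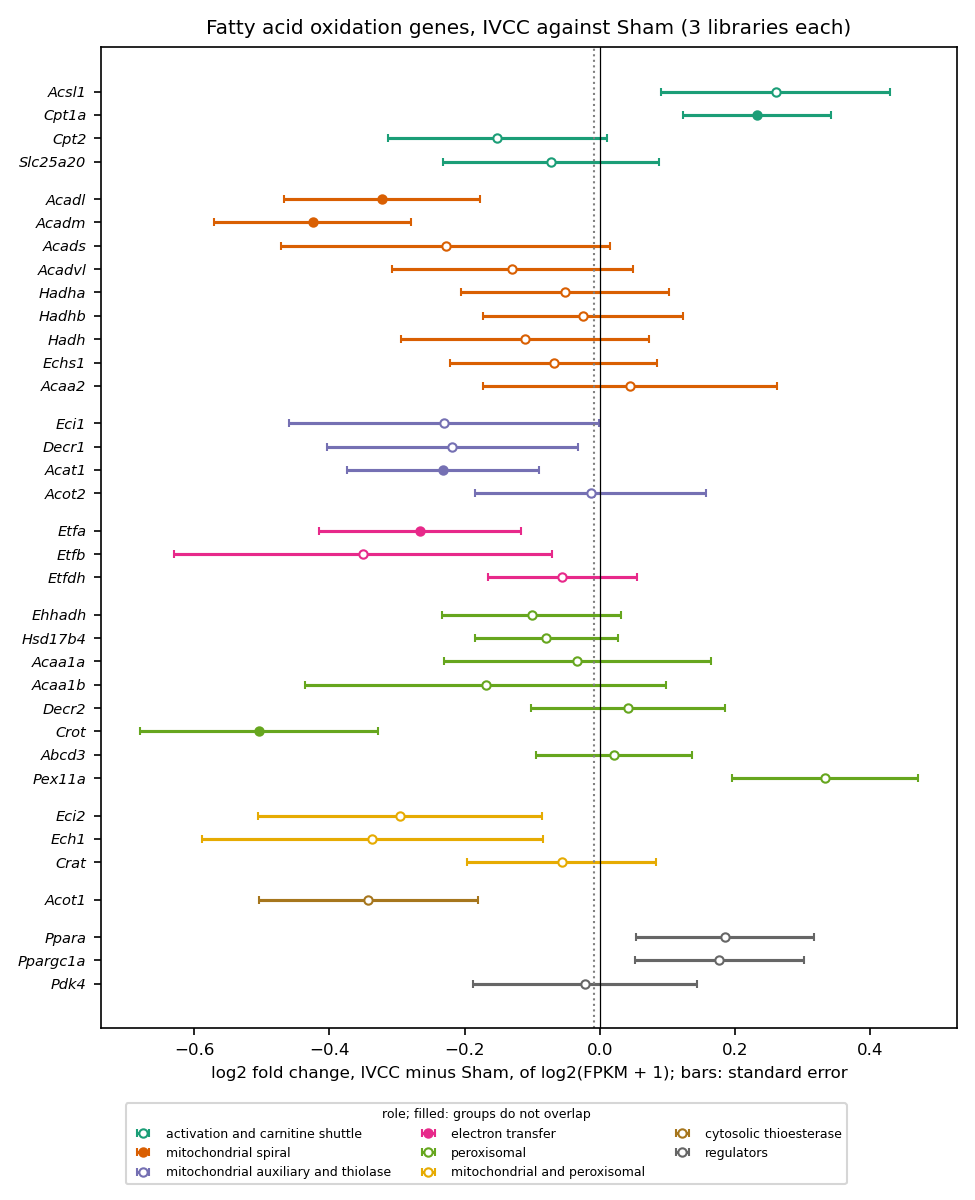
Log2 fold change of each of the 35 genes, IVCC minus Sham, on the log2(FPKM + 1) scale, with bars for the limma standard error and colours for roles. Filled points are the 6 genes whose groups did not overlap, the dotted line is the median of all genes tested (-0.01), and 27 of the 35 points lie below 0.

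Acyl chains enter through 4 genes of the set, 2 with a higher and 2 with a lower fitted value. After TPM scaling all 4 were higher, though 2 of them lay below the median of all genes. Cpt1a, the outer membrane carnitine palmitoyltransferase that is the regulated entry step, measured 117, 125 and 114 FPKM in IVCC and 95.7, 107 and 101 FPKM in Sham. The gene lies at chr19:3322334-3385733 on the plus strand of GRCm38. The lowest IVCC library, the third, lay above the highest Sham library, the second. The IVCC mean was 119 ± 5.71 FPKM and the Sham mean 101 ± 5.51 FPKM (SD, n = 3 per group), a log2 fold change of 0.23 (standard error 0.11; limma, adjusted p = 0.924). Cpt2, which turns acylcarnitines back into acyl-CoA inside the mitochondrion, measured 81.3, 73.2 and 96.8 FPKM in IVCC and 82.7, 86.2 and 111 FPKM in Sham. The groups overlapped, and its log2 fold change of -0.15 (standard error 0.16) was 0.02 after TPM scaling (-0.12 relative to the median of all genes). Acsl1, which activates long-chain fatty acids, had an IVCC mean of 66.2 ± 11.6 FPKM and a Sham mean of 54.9 ± 8.56 FPKM (SD, n = 3 per group), with overlap. Slc25a20, the carnitine-acylcarnitine carrier of the inner membrane, had a log2 fold change of -0.07.

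Among the 9 genes of the mitochondrial oxidation spiral, 8 had a lower fitted value and 1, Acaa2, a higher one, with a median log2 fold change of -0.11. After TPM scaling 3 were lower (7 relative to the median of all genes), against 4 after quantile normalization and 2 without Sham 3. Acadm, the medium-chain acyl-CoA dehydrogenase, was the most abundant of them and measured 491, 515 and 533 FPKM in IVCC and 619, 706 and 747 FPKM in Sham. All 3 IVCC libraries lay below all 3 Sham libraries, and the gap between the nearest libraries was wider than the whole range within IVCC. Its IVCC mean was 513 ± 21.1 FPKM and its Sham mean 691 ± 65.4 FPKM (SD, n = 3 per group), a ratio of means of 0.743 and a log2 fold change of -0.42 (standard error 0.15). Its unadjusted limma p of 0.0207 ranked 173 among the 12090 genes tested and came to an adjusted p of 0.924. The gene lies at chr3:153922357-153944632 on the minus strand of GRCm38.

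Acadl, the long-chain acyl-CoA dehydrogenase, measured 195, 221 and 248.0 FPKM in IVCC and 248.5, 285 and 297 FPKM in Sham. The groups were separate only by the narrow gap between IVCC 3 and Sham 1. Its IVCC mean was 221 ± 26.4 FPKM and its Sham mean 277 ± 25.1 FPKM (SD, n = 3 per group), a log2 fold change of -0.32 (standard error 0.14; limma, adjusted p = 0.924). Hadh, the short-chain hydroxyacyl-CoA dehydrogenase and second in abundance in the spiral, measured 476, 435 and 534 FPKM in IVCC and 499, 436 and 640 FPKM in Sham. These groups overlapped, and its log2 fold change of -0.11 (standard error 0.18) was 0.04 after quantile normalization and 0.07 after TPM scaling. Relative to the median of all genes the TPM value was -0.08.

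The other 6 genes of the spiral overlapped between the groups, with log2 fold changes from -0.23 for Acads, the short-chain dehydrogenase, to 0.04 for Acaa2, the terminal thiolase. Acadvl, the very-long-chain dehydrogenase, had a log2 fold change of -0.13 and Echs1, the short-chain enoyl-CoA hydratase, one of -0.07. Hadha and Hadhb encode the 2 subunits of the trifunctional protein, which carries out the last steps on long chains. Their log2 fold changes were -0.05 and -0.02. In Hadhb, 57.2% of all 75-base stretches of the transcript, the length of a read, also occur in the processed pseudogene Gm13910, so its level is uncertain where reads were shared.

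**Figure D2:**
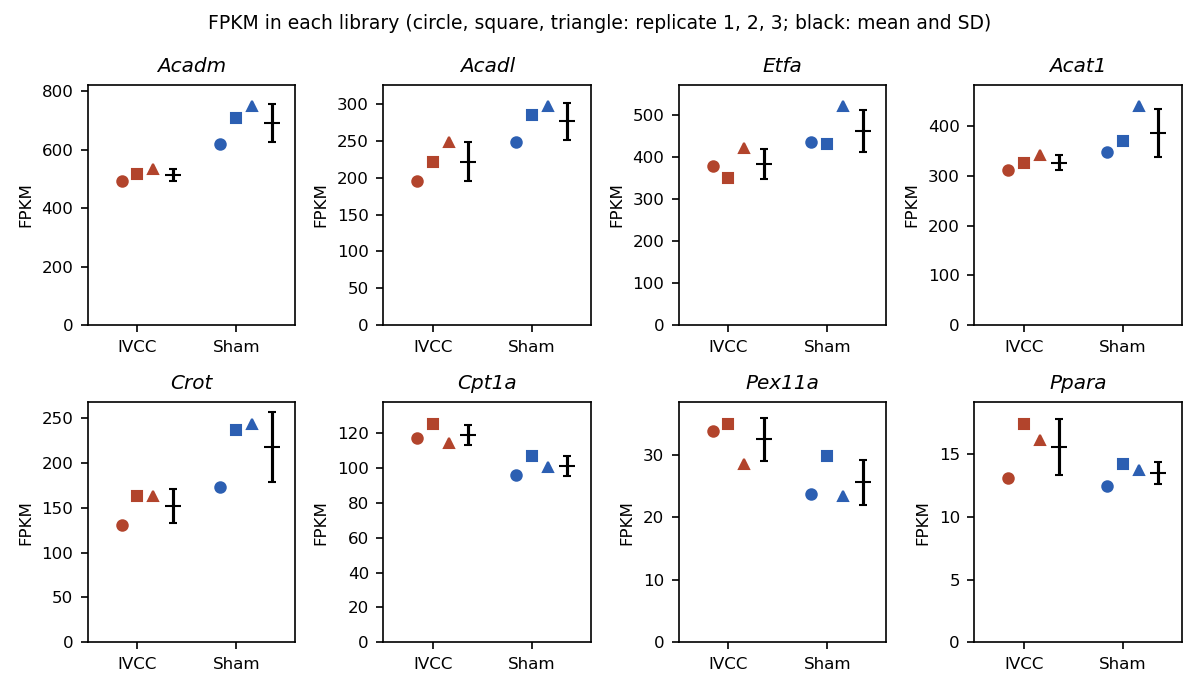
FPKM of 8 genes in each library (circle, square and triangle are replicates 1, 2 and 3, and the black bars are the mean and SD of each group, n = 3). Acadm, Acadl, Etfa, Acat1 and Crot lie lower in all 3 IVCC libraries than in any Sham library and Cpt1a higher, while Pex11a and Ppara overlap.

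Electron transfer flavoprotein takes electrons from all the acyl-CoA dehydrogenases. Its alpha subunit gene Etfa measured 379, 351 and 422 FPKM in IVCC and 436, 430.2 and 521 FPKM in Sham. All IVCC libraries lay below all Sham libraries, with IVCC 3 close to Sham 2. The IVCC mean was 384 ± 35.7 FPKM and the Sham mean 462 ± 50.7 FPKM (SD, n = 3 per group), a log2 fold change of -0.27 (standard error 0.15; limma, adjusted p = 0.924). The beta subunit gene Etfb, the most abundant gene of the set, measured 702, 527 and 959 FPKM in IVCC and 904, 692 and 1175 FPKM in Sham. Within each group library 2 was lowest and library 3 highest, and the groups overlapped (log2 fold change -0.35, standard error 0.28). Of the 75-base stretches of Etfb, 66.3% also belong to the overlapping gene Gm45233, so its level is uncertain. Etfdh, which passes the electrons on to ubiquinone, had a log2 fold change of -0.06, which was 0.12 after TPM scaling and 0.06 after quantile normalization. Relative to the median of all genes the TPM value was -0.03.

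The auxiliary enzymes handle double bonds in awkward positions, and the thiolase Acat1 acts on acetoacetyl-CoA and in ketone body use and isoleucine breakdown. Acat1 measured 312, 326 and 341 FPKM in IVCC and 347, 369 and 439 FPKM in Sham. IVCC 3 and Sham 1 were near each other and the groups did not overlap. The IVCC mean was 326 ± 14.4 FPKM and the Sham mean 385 ± 48.2 FPKM (SD, n = 3 per group), a log2 fold change of -0.23 (standard error 0.14; limma, adjusted p = 0.924). Decr1, the mitochondrial dienoyl-CoA reductase, measured 107, 105 and 133 FPKM in IVCC and 120.5, 114 and 171 FPKM in Sham. It overlapped between the groups through IVCC 3 (log2 fold change -0.22, standard error 0.19). Eci1, the mitochondrial enoyl-CoA isomerase, had a log2 fold change of -0.23, and Acot2, a mitochondrial acyl-CoA thioesterase, one of -0.01.

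The 8 peroxisomal genes held the largest fitted difference in each direction among the 35 in the reported setting. Crot, the carnitine octanoyltransferase that makes medium-chain acylcarnitines for export to mitochondria, measured 130.3, 163 and 163 FPKM in IVCC and 173, 237 and 243 FPKM in Sham. The gene lies at chr5:8966033-8997324 on the minus strand of GRCm38. All 3 IVCC libraries lay below all 3 Sham libraries. Its IVCC mean was 152 ± 18.96 FPKM and its Sham mean 218 ± 39.2 FPKM (SD, n = 3 per group), a ratio of means of 0.699 and a log2 fold change of -0.50 (standard error 0.18). Its unadjusted limma p was 0.0221 and its adjusted p 0.924.

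Pex11a, a membrane protein of peroxisome division, measured 33.8, 35.0 and 28.6 FPKM in IVCC and 23.7, 29.8 and 23.4 FPKM in Sham. Sham 2 lay above IVCC 3, so the groups overlapped. Its IVCC mean was 32.4 ± 3.41 FPKM and its Sham mean 25.6 ± 3.59 FPKM (SD, n = 3 per group), a log2 fold change of 0.33 (standard error 0.14). Its unadjusted limma p was 0.0438 and its adjusted p 0.924.

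Ehhadh, the peroxisomal bifunctional enzyme, was the most abundant peroxisomal gene of the set at 257, 259.5 and 223 FPKM in IVCC and 265, 285 and 243 FPKM in Sham. The groups overlapped, and its log2 fold change of -0.10 (standard error 0.13) was 0.06 after quantile normalization and 0.08 after TPM scaling. Relative to the median of all genes the TPM value was -0.07. Acaa1b, a peroxisomal thiolase, measured 178, 134 and 242 FPKM in IVCC and 199.7, 154 and 267 FPKM in Sham, with library 2 lowest and library 3 highest in both groups. Its log2 fold change of -0.17 (standard error 0.27) was 0.01 after TPM scaling (-0.14 relative to the median of all genes). The other 4, Acaa1a, the D-bifunctional enzyme Hsd17b4, the reductase Decr2 and the transporter Abcd3, had log2 fold changes from -0.08 for Hsd17b4 to 0.04 for Decr2.

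Acaa1a and Acaa1b are nearby copies on chromosome 9 whose coding sequences are identical at 1228 of 1272 aligned bases (96.5%). Of their 75-base stretches, 27.3% of those in Acaa1a and 28.5% of those in Acaa1b occur in both genes, so reads could be split between them and both levels are uncertain. The stretch of coding bases 11 to 85 shows how near they are, with capitals at the 2 bases that differ.
Acaa1a: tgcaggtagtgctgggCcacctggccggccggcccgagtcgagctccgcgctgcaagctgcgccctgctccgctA
Acaa1b: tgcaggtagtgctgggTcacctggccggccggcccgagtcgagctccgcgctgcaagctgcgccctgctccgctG

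Eci2, Ech1 and Crat act in both organelles, and all 3 had lower fitted values. Crat turned after TPM scaling and quantile normalization and without IVCC 2 or Sham 3. Relative to the median of all genes, Crat was at -0.03 after TPM scaling. Ech1, a dienoyl-CoA isomerase, measured 549.5, 468 and 773 FPKM in IVCC and 653, 628 and 976 FPKM in Sham. Eci2, an enoyl-CoA isomerase, measured 93.8, 92.9 and 127 FPKM in IVCC and 111, 109 and 169 FPKM in Sham. In both genes IVCC 3 lay above Sham 1 and Sham 2, so the groups overlapped, and library 3 was highest within each group. The log2 fold change was -0.34 (standard error 0.25) for Ech1, -0.30 (standard error 0.21) for Eci2 and -0.06 for Crat, the carnitine acetyltransferase.

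Acot1, a cytosolic acyl-CoA thioesterase, measured 25.4, 24.3 and 32.3 FPKM in IVCC and 32.1, 30.9 and 41.9 FPKM in Sham. Only IVCC 3 reached into the Sham range, and its log2 fold change came to -0.34 (standard error 0.16; limma, unadjusted p = 0.0696, adjusted p = 0.924). Its coding sequence matches that of Acot2 at 1181 of 1236 aligned bases (95.6%), and 26.4% of its 75-base stretches occur in another gene, so its level is uncertain. Capitals mark the 2 differing bases in a stretch at coding bases 30 to 104 of Acot1 and 153 to 227 of Acot2.
Acot1: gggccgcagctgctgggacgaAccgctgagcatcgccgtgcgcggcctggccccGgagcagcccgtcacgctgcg
Acot2: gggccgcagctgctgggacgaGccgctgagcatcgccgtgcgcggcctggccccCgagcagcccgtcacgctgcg

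The 3 regulators overlapped between the groups, and Pdk4 had the lowest level of the 35 genes. Ppara, which encodes PPAR alpha, measured 13.1, 17.4 and 16.1 FPKM in IVCC and 12.5, 14.2 and 13.7 FPKM in Sham. Ppargc1a, which encodes PGC-1 alpha, measured 11.5, 14.4 and 11.2 FPKM in IVCC and 11.4, 10.5 and 10.5 FPKM in Sham. Both overlapped between the groups, with log2 fold changes of 0.18 (standard error 0.13 each). Pdk4, the kinase that shuts off pyruvate dehydrogenase when fat is burned, measured 3.83, 4.93 and 5.47 FPKM in IVCC and 4.19, 5.86 and 4.44 FPKM in Sham. On the log2 scale its fold change was -0.02 (standard error 0.17).

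Single libraries moved many of the genes together. Sham 3 held the highest value of 26 of the 35 genes and IVCC 2 the lowest of 15. The mean deviation of the 35 genes from their own averages, in log2 units, was 0.24 in Sham 3, -0.02 in Sham 1 and -0.07 in Sham 2. In IVCC it was -0.09, -0.14 and 0.07 for libraries 1, 2 and 3. The IVCC 3 value thus lay above Sham 1 and Sham 2. Over all genes tested the same measure stayed between -0.03 and 0.04. The mitochondrial genes had deviations of 0.29 in Sham 3 and 0.06 in IVCC 3, and the peroxisomal genes 0.15 and 0.04.

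**Figure D3:**
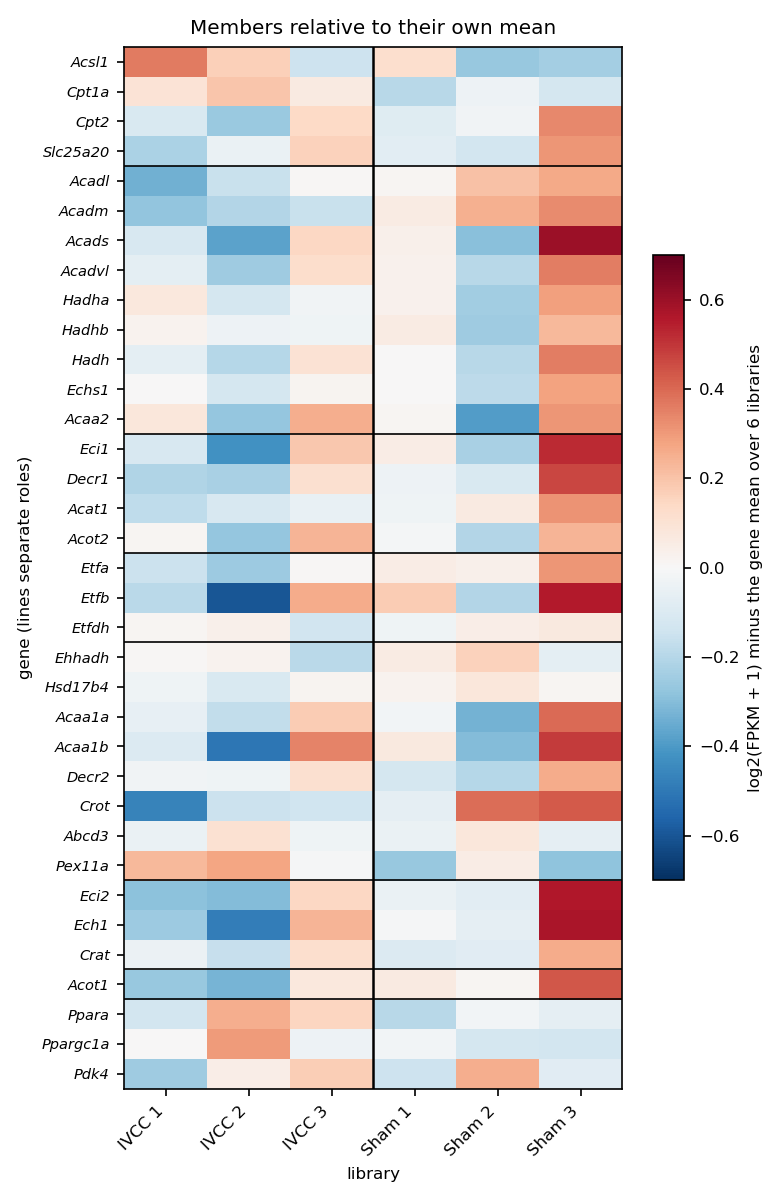
Deviation of each gene in each library from its mean over the 6 libraries, in log2(FPKM + 1) units (red higher, blue lower), grouped by role. Sham 3 is the highest library for 26 of the 35 genes.

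**Figure D4:**
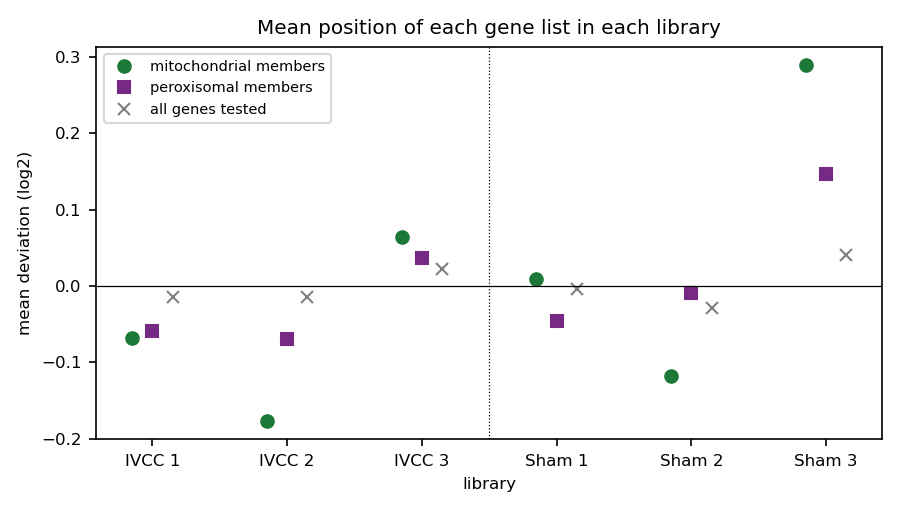
Mean deviation per library, in log2(FPKM + 1) units, of the 20 mitochondrial genes, the 8 peroxisomal genes and all genes tested. Sham 3 is highest in each gene set (0.29 over the mitochondrial and 0.15 over the peroxisomal genes), and IVCC 3 lies above Sham 1 and Sham 2 in each.

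As a share of all FPKM the 35 genes took 0.787%, 0.780% and 0.756% in IVCC 1, 2 and 3 and 0.790%, 0.826% and 0.761% in Sham 1, 2 and 3. IVCC 1 lay above Sham 3, so these shares overlapped. Without Kap, an abundant gene of the proximal tubule, the shares were 0.884%, 0.878% and 0.870% in IVCC and 0.919%, 0.949% and 0.912% in Sham, and no longer overlapped.

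Genes that kept their sign were counted over 19 alternative settings of scaling, filtering, test and libraries. Of these, 5 (the filters, the eBayes choices and the replicate block) leave each fold change as reported by construction, and the block with the length and GC correction repeats the folds of the correction alone. In 16 of the 35 genes the fitted difference had the same sign in all 19, with 11 lower (Acadl, Acadm, Eci1, Decr1, Acat1, Etfa, Etfb, Crot, Eci2, Ech1 and Acot1) and 5 higher (Acsl1, Cpt1a, Pex11a, Ppara and Ppargc1a). The share of all genes tested that kept their sign was not computed, so these 16 have no background to be read against. Over the alternatives, the log2 fold change of Acadm ran from -0.50 to -0.25, that of Crot from -0.66 to -0.33 and that of Cpt1a from 0.13 to 0.41. None of the 664 gene and setting values passed an adjusted p under 0.05 in limma, and the smallest was 0.0775.

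**Figure D5:**
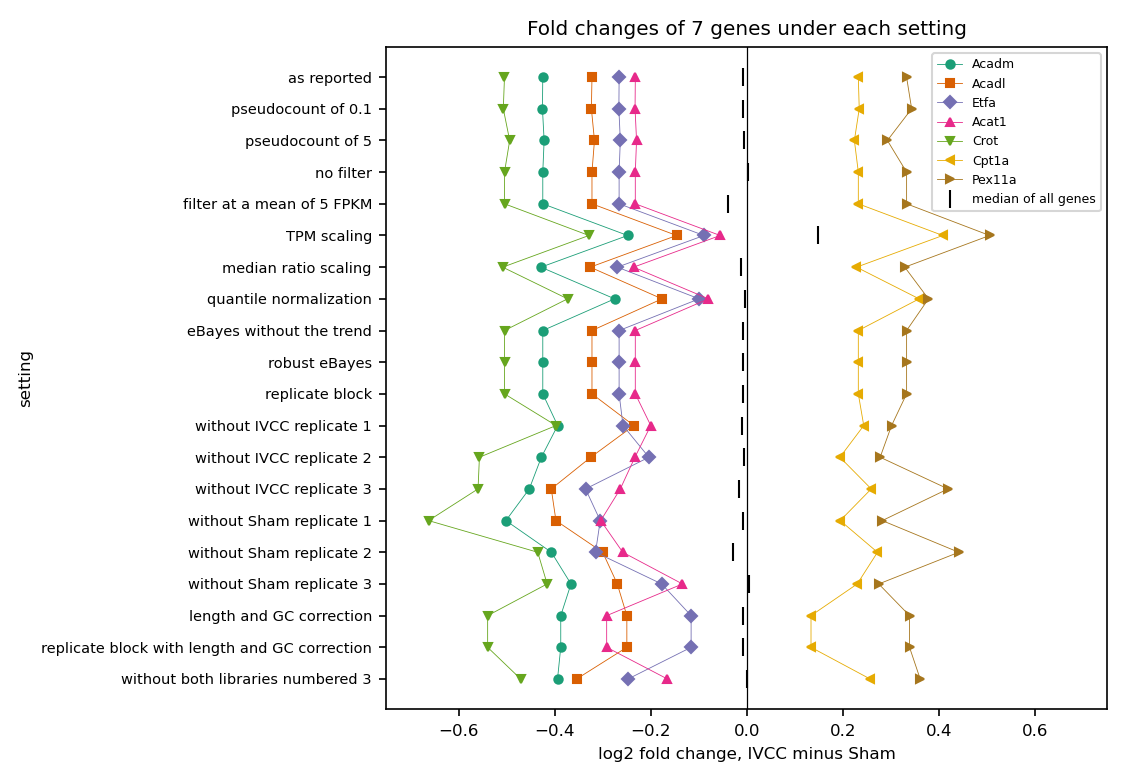
Log2 fold change of 7 genes in each alternative setting, with the reported setting marked. Acadm and Crot stay below 0 and Cpt1a stays above 0 throughout.

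Promoters are shown for the genes whose groups did not overlap and that RefSeq gives a start for, to show which letters near the start they share. Windows run from 250 bases before to 50 after the RefSeq start on GRCm38.p6, 5′ to 3′. They were found for 30 of the 35 genes (all but Acaa2, Decr1, Acat1, Hsd17b4 and Crat). Capitals mark exact AGGTCA on either strand, the single receptor site, or AGGTCANAGGTCA, the direct repeat bound by PPAR alpha with its partner, with up to 2 mismatches. The window of Acadm lies at chr3:153944594-153944893 on the minus strand, Acadl at chr1:66863260-66863559 (minus), Crot at chr5:8997097-8997396 (minus), Etfa at chr9:55512194-55512493 (minus) and Cpt1a at chr19:3323051-3323350 (plus).
Acadm: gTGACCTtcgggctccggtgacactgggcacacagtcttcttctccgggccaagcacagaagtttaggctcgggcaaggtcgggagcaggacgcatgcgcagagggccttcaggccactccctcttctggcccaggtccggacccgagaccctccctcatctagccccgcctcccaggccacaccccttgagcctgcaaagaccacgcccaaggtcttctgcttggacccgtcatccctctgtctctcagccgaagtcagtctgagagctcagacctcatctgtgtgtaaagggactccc
Acadl: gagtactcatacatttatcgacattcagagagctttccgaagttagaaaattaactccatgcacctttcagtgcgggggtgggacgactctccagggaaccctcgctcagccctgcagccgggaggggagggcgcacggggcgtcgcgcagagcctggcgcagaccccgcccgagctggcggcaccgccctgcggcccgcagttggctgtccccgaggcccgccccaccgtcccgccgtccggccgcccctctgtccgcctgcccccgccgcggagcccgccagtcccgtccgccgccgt
Crot: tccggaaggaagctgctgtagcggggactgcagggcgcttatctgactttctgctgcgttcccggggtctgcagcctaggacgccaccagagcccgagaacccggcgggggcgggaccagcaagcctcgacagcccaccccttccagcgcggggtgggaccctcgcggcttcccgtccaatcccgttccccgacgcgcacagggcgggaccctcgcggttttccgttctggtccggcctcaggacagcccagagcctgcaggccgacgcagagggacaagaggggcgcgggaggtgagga
Etfa: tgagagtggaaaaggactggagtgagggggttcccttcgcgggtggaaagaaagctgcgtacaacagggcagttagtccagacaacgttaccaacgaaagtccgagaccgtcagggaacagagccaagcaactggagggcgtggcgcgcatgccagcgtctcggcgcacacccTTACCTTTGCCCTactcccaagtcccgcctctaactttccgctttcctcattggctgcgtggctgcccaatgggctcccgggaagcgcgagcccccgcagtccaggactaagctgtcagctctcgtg
Cpt1a: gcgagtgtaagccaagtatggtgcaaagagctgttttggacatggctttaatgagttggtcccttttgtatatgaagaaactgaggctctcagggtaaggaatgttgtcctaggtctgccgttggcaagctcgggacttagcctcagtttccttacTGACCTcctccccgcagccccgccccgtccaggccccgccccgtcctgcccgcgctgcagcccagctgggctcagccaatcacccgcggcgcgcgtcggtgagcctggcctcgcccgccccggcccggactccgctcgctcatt

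The exact single site occurred in 4 of the 30 genes with a window (Acadm, Acadvl, Cpt1a and Echs1), against 18.1% of 27025 genes. The direct repeat with up to 2 mismatches occurred in 3 (Echs1, Etfa and Slc25a20), against 4.40% of genes. The exact repeat occurred in none, against 0.0481%, and the longer form TCAAGGTCA in none, against 0.466%. The single site and the repeat overlap in Echs1. A match is letters only, and a window without one says nothing of binding elsewhere.

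Other genes of the pathway were taken from lists by function, 145 of 158 of them tested, with 61 higher and 84 lower in fitted value and a median of -0.05. None was called at an adjusted p under 0.05 in limma, and 0 were higher and 3 lower at an unadjusted p under 0.05, where all genes tested gave 1.70% and 1.87%. Without overlap between the groups, 9 of the 145 were lower and 4 higher, where all genes tested gave 4.22% and 4.09%. After TPM scaling 108 of 146 were higher (79 lower relative to the median of all genes), after quantile normalization 77 of 145 and without Sham 3 80 of 145. Bdh1, the mitochondrial enzyme that interconverts the ketone bodies, measured 49.8, 54.0 and 62.9 FPKM in IVCC and 71.5, 73.1 and 84.3 FPKM in Sham, without overlap. Its log2 fold change came to -0.45 (standard error 0.13; limma, unadjusted p = 0.00933, adjusted p = 0.924). Acox2, the peroxisomal oxidase for branched chains and bile acid precursors, had an IVCC mean of 44.5 ± 2.15 FPKM and a Sham mean of 56.2 ± 5.46 FPKM (SD, n = 3 per group), without overlap (but with overlap after TPM scaling).

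By list, 17 of 21 other peroxisomal lipid enzymes had a lower fitted value (median -0.17) and 14 of 20 other mitochondrial acyl-CoA enzymes did (median -0.13). After TPM scaling these were 9 and 7, but 17 and 13 lay below the median of all genes, which that scaling raised to 0.15. Of the 24 PPAR alpha targets outside the set, 18 were lower (median -0.12). After TPM scaling 10 were lower (16 relative to the median of all genes), against 14 after quantile normalization and 10 without Sham 3. Among these targets Aqp7, the aquaglyceroporin of the tubule, had a log2 fold change of -0.41 with no overlap. The uptake and binding proteins numbered 8 lower of 11, the synthetases and carnitine transferases 8 of 13, the peroxisome biogenesis genes 11 of 19 and the ketone body enzymes 4 of 7. After TPM scaling these 4 lists had 4, 3, 4 and 2 lower genes, and 7, 8, 11 and 3 below the median of all genes. By contrast, 16 of 22 transcriptional regulators (median 0.11) and 12 of 19 genes of the malonyl-CoA, AMPK and pyruvate dehydrogenase switch (median 0.05) had a higher fitted value, as at least as many did after TPM scaling and quantile normalization. Among them Foxo1, a transcription factor of fasting metabolism, had an IVCC mean of 9.37 ± 0.792 FPKM and a Sham mean of 8.001 ± 0.481 FPKM (SD, n = 3 per group), without overlap. Pdk3, another pyruvate dehydrogenase kinase, had a log2 fold change of -0.17 without overlap. Both overlapped after TPM scaling, Foxo1 also after median ratio scaling and the length and GC correction (log2 fold change 0.05), and Pdk3 also after quantile normalization.

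Some PPAR alpha targets differed more between libraries of a group than between the group means. Angptl4, an inhibitor of lipoprotein lipase, measured 20.5, 28.0 and 92.4 FPKM in IVCC and 25.0, 35.6 and 109 FPKM in Sham. In Angptl4, Cyp4a10, Cyp4a14 and Plin2, library 3 was highest in each group. The cause was not tested.

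Summed markers of 4 other cell types were higher in each IVCC library than in any Sham library, though no marker passed the adjusted limma test. Summed FPKM of 6 podocyte genes ran from 54.2 to 96.9 in IVCC and 45.5 to 48.4 in Sham, and those of 8 endothelial genes from 159 to 167 and 137 to 154. The 6 fibroblast genes summed to 37.1 to 42.8 in IVCC and 31.9 to 35.3 in Sham, and the 8 macrophage genes to 94.3 to 117 and 84.3 to 89.3. At an unadjusted limma p under 0.05, 5 of 6 podocyte, 3 of 8 endothelial, 4 of 5 tested fibroblast and 4 of 8 macrophage genes were higher. Lower at that p were 1 macrophage gene and 0 of the other lists. Of the 20 proximal tubule genes, 2 were higher and 1 lower. All genes tested gave 1.70% higher and 1.87% lower. The 20 proximal tubule genes summed to 91963 to 135259 in IVCC and 111656 to 200175 in Sham (11 higher and 9 lower in fitted value). After TPM scaling 16 were higher and 4 lower, with 9 below the median of all genes. Kap alone made up 87.1% to 92.7% of that proximal tubule sum, and the other 19 genes summed to 11139 to 13603 in IVCC and 11150 to 14543 in Sham. Against their lists, the macrophage gene Csf1r had a log2 fold change of -0.37 and the fibroblast gene Dcn one of -0.14. All 5 hepatocyte genes tested had a lower fitted value (median -0.44). Of these, 2 had an unadjusted limma p under 0.05 (Serpina1a at -1.38 and Apoa1 at -0.59), where all genes tested gave 1.87% lower. Without Sham 3 that list had 3 lower genes of 4 and a median of -0.06. Hepatocyte sums overlapped between the groups, at 1720 to 2339 FPKM in IVCC and 1879 to 2534 FPKM in Sham. Most of each sum was Cyp2e1, at 1552 to 2021 FPKM in IVCC and 1662 to 2082 FPKM in Sham. Ttr measured 153 to 296 FPKM in IVCC and 200 to 410 FPKM in Sham. Alb ran only from 3.3 to 9.4 FPKM over the 6 libraries, and Cps1 was listed at 0 in all 6 libraries. The part of these markers in the results was not tested. Csf1r, Dcn, Serpina1a, Apoa1, Cyp2e1 and Ttr were named after their values were seen, as were Fabp4, Car3, Lipe, Akr1b7 and Mylpf below. Fat, adrenal and muscle sources were looked for by marker lists. Adipoq and Ucp1 of adipocytes and Cyp11b1 of the adrenal were listed at 0 in all 6 libraries, as were 7 of 12 adipocyte, 3 of 8 adrenal and 5 of 8 muscle markers in all. Of the adipocyte list, Fabp4 ran from 74.7 to 140 FPKM, Car3 from 11.6 to 20.8 and Lipe from 6.56 to 8.58. Akr1b7 of the adrenal list ran from 3.84 to 5.83 FPKM and Mylpf of the muscle list from 1.49 to 2.77 FPKM. The adipocyte list summed to 99.9 to 168 FPKM in IVCC and 105 to 170 FPKM in Sham. Which cells these transcripts came from was not tested.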

How the data were processed

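Per the labels' protocols, mouse kidney RNA went into stranded mRNA libraries that were read from 1 end. The values are FPKM as deposited by the authors in 1 table with 1 column per library. Per the submitters' processing notes, the tools were Bowtie2 2.2.3, TopHat2 2.0.13, Cufflinks 2.2.1 and SAMtools 0.1.19 and the build mm10, with no roles stated. Which annotation, filters or scaling between libraries the authors used is not given in these sources. Summed FPKM per library ran from 719896 to 1118258.

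The test covered the 12090 genes averaging 1 FPKM or more (12256 fell below), on log2(FPKM + 1), which understates the change of low genes. In R 4.3.3, limma 3.58.1 gave two-sided tests of IVCC against Sham from lmFit and a trended eBayes, and Benjamini-Hochberg adjustment covered all genes tested. The script was tested on simulated data. Nominal library sizes come from the steps between low FPKM values, of which 79.9% to 85.6% lay within a tolerance of 0.1 of a whole read. These sizes were not exact enough for a count test. Coordinates and 75-base stretches come from GENCODE M21 on GRCm38, the assembly that mm10 names, and promoter windows from RefSeq on GRCm38.p6.

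The genes, lists and tests were chosen with earlier results of these data known. Values in every library are given for genes with an unadjusted p under 0.05 or no overlap, the 2 most abundant of each role, and Cpt1a, Ppara, Ppargc1a and Pdk4. Of each pathway list the 2 genes with the smallest p could be named, plus Cyp4a10, Cyp4a14, Angptl4 and Plin2. Not every gene so chosen is reported here. The promoter and stretch examples, the share without Kap, the within-library ratios and the sentences on library 3 were chosen after values were seen. The alternatives tried a pseudocount of 0.1 or 5, a filter at 5 FPKM or none, 3 scalings, other eBayes settings, the replicate block and each library left out. Chosen after seeing the data were a length and GC correction (alone and with the block) and the omission of both libraries numbered 3.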

Additional observations from a re-analysis of the deposited data

How the results depend on the processing

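No gene of the set passed an adjusted p under 0.05 in any setting. Under TPM scaling the median log2 fold change was 0.10 over the 35 genes, 0.0563 over the mitochondrial and 0.119 over the peroxisomal ones. It was 0.15 over all genes. There 12 genes were lower, and 25 were lower relative to the median of all genes. At an unadjusted limma p under 0.05, 0 were lower and 0 higher (all genes 0.685% and 2.22%). Without overlap were 1 lower and 2 higher (all genes 1.77% and 6.03%). Under TPM scaling 15 genes turned from lower to higher, among those given by library Cpt2 (0.0233), Hadh (0.0658), Ehhadh (0.0757), Acaa1b (0.00708) and Pdk4 (0.122). Relative to the median of all genes, these named genes stayed lower, at -0.124, -0.0819, -0.072, -0.141 and -0.0253 in the same order. Quantile normalization left 17 genes lower and a peroxisomal median of 0.0624, and turned 10 genes from lower to higher, among them Hadh (0.0444) and Ehhadh (0.0606). At an unadjusted limma p under 0.05, Acot1 was then lower and Cpt1a higher (log2 fold change 0.359), where all genes gave 2.38% and 1.63%. Without overlap were 1 lower and 0 higher (all genes 5.10% and 3.65%). At an unadjusted p under 0.05, 2 genes were higher with no filter (all genes 2.48%). With median ratio scaling 0 were higher (all genes 1.53%), and without the eBayes trend 0 (all genes 1.84%). The length and GC correction gave 4 lower and 0 higher (all genes 2.99% and 2.51%). Without both libraries numbered 3 there were 5 lower and 1 higher at that p (all genes 4.71% and 4.03%), and 12 lower and 5 higher without overlap (all genes 20.3% and 20.5%). Leaving out each library in turn gave 0 to 4 lower and 0 to 2 higher at that p, 5 to 11 lower and 1 to 4 higher without overlap, and 17 to 29 lower in fitted value, the 17 without Sham 3. The largest counts at that p and without overlap came without IVCC 3. All genes then gave 4.81% lower and 3.79% higher at that p, and 17.0% and 15.5% without overlap. With any other library left out, all genes gave 0.795% to 2.94% lower and 0.814% to 1.79% higher at that p. Without overlap these shares were 5.81% to 12.4% and 5.98% to 9.59%. Leaving out each library gave medians of -0.18 to 0.01 over the 35 genes, -0.22 to 0.02 over the mitochondrial and -0.07 to 0.01 over the peroxisomal ones. The log2 fold change then ran from -0.11 to 0.10 for Pdk4, -0.384 to 0.041 for Acaa1b and -0.235 to 0.0407 for Hadh. The causes were not tested.

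With the replicate number as a block, 13 genes were lower and 3 higher at an unadjusted p under 0.05, against 13.4% and 6.39% of all genes, with a smallest adjusted limma p of 0.0775. With the replicate block and the length and GC correction together, 10 were lower and 2 higher (all genes 8.19% and 5.72%). Deviations of same-numbered libraries correlated at -0.107, 0.343 and 0.323 for numbers 1, 2 and 3. The libraries numbered 2 matched each other best, as did those numbered 3, while both numbered 1 matched a library numbered 2 best. Since not every pair correlated, the numbers were not taken as pairs in the reported fit. Whether the numbers mark pairs was not tested, and these correlations do not settle it. FPKM carry no read totals, which limits what can be said of depth.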

Other observations

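Ratios of 2 genes within a library do not change when a library is scaled by 1 factor, though quantile normalization and the length and GC correction can change them. The FPKM ratio of Acadm to Etfdh was 4.30, 4.45 and 5.17 in IVCC and 5.60, 6.04 and 6.29 in Sham, without overlap. The ratio of Acadm to Hadha was 6.28, 7.55 and 7.30 in IVCC and 8.16, 11.2 and 8.20 in Sham, without overlap. Acadm FPKM had no overlap by themselves, and the log2 fold changes of Etfdh and Hadha were small (-0.06 and -0.05). These ratios thus in part repeat the Acadm values and are not separate support. Acadm to Acadl (2.15 to 2.52 in IVCC, 2.48 to 2.52 in Sham) and Acadm to Acads (2.70 to 3.74 and 2.76 to 4.85) overlapped, as did Cpt1a to Cpt2 (1.18 to 1.71 and 0.904 to 1.24) and Hadha to Hadhb (0.396 to 0.436 and 0.414 to 0.441). Crot to Cpt1a was 1.12, 1.30 and 1.43 in IVCC and 1.80, 2.22 and 2.42 in Sham, without overlap. Crot to Crat was 2.74, 3.72 and 3.06 in IVCC and 3.77, 5.11 and 4.13 in Sham, without overlap. Crot and Cpt1a FPKM had no overlap by themselves, so these ratios in part repeat those values and are not separate support. Acadl to Acadvl (0.961 to 1.24 in IVCC, 1.09 to 1.53 in Sham) overlapped. All 9 ratios computed are given here. They were chosen after the values had been seen, and no test was run.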
